A study of Mus musculus with 2 samples.

Results

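The genes of interleukin-1 (IL-1) and interleukin-18 (IL-18), with their receptors and inhibitors, were followed in macrophages of HDAC11 knockout and wild-type mice. Members were the 10 genes Il1a, Il1b, Il1rn, Il1r1, Il1r2, Il1rap, Il18, Il18bp, Il18r1 and Il33. Every main probeset of the deposited table whose symbol cell held such a gene alone was looked up. The probeset of highest mean signal stood for the gene. The members are 10 of the 24315 genes named by a single symbol, and 12 probesets of 19 to 31 probes represent them. Both groups were C57BL/6 mice injected with thioglycollate, a sterile irritant that draws macrophages into the peritoneal cavity. Their cells stayed in medium overnight with no further treatment, and RNA came from those that adhered. The groups differ by label in genotype alone, HDAC11 knockout against wild type. The sources used here do not describe the knockout allele, the age and sex of the mice or how many gave each RNA. Each genotype had 1 Affymetrix array, which limits the precision, so differences are described with no test, no error and no p-value.

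IL-1alpha and IL-1beta are agonists of the same receptor, Il1r1, which signals once it has recruited the accessory chain Il1rap. Il1rn encodes the receptor antagonist, which occupies Il1r1 without recruiting that chain, and Il1r2 encodes a decoy receptor that binds ligand without signalling. IL-18 acts through Il18r1 and is held in solution by the binding protein Il18bp, while IL-33 is an alarmin of stromal and epithelial cells. In macrophages IL-1beta and IL-18 are made as precursors that caspase-1 cuts inside inflammasomes, whereas the IL-1alpha precursor is already active.

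The promoters of 5 members are shown because their genes hold the largest differences or, for Il1a and Il1b, because adjacent genes gave signals on opposite sides of the floor defined below. All 10 members had an entry in the RefSeq promoter table (GRCm38.p6), with 16 start sites in all, and each window runs from 250 bases before to 50 bases after a start site. The windows are, for Il1a chr2:129309923-129310222 on the minus strand, for Il1b chr2:129371090-129371389 on the minus strand, for Il1rn chr2:24336610-24336909 on the plus strand, for Il18bp chr7:102018183-102018482 on the minus strand and for Il1r1 chr1:40224830-40225129 on the plus strand. Il1rn has 3 such windows in the table and Il1r1 has 2, of which the most upstream is shown. Capitals mark matches to TATAAA, the PU.1 core GAGGAA, the AP-1 site TGANTCA and the C/EBP site TTGCNNAA, searched on both strands.
Il1a: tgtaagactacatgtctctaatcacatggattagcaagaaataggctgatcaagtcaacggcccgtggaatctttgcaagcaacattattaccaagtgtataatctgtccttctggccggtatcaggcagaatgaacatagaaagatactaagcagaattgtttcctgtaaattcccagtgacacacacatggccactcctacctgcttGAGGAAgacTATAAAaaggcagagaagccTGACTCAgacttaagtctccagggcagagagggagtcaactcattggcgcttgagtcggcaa
Il1b: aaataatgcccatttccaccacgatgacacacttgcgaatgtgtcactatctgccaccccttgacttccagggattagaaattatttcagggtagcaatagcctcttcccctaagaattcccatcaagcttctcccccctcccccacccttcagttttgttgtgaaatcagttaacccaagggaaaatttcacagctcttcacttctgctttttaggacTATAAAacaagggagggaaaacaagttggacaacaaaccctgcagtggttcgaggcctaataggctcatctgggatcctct
Il1rn: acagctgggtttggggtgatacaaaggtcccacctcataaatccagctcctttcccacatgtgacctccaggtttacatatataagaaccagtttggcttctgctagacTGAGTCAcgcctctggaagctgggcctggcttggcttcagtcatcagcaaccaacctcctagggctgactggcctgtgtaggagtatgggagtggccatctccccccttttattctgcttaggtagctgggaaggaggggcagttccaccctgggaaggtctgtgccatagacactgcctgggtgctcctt
Il18bp: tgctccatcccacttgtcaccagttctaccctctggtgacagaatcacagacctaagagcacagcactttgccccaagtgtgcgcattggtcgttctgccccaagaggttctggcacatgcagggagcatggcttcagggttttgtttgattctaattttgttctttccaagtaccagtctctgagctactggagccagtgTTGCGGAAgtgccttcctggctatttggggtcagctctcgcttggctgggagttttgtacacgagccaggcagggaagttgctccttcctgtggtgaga
Il1r1: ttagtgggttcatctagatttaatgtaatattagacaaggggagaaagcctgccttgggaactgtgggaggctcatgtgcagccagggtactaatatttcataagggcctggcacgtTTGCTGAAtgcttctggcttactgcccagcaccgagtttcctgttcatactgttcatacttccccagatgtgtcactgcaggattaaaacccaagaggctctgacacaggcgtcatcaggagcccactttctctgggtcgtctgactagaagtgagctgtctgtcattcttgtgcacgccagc

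Il1a and Il1b both held TATAAA close before the start, with matches beginning at -32 and -31, a motif found in 13.6% of the 32851 promoter windows of the table. Il1a alone of these 5 also held GAGGAA (at -41, in 28.3% of windows). TGANTCA stood at -12 in Il1a and at -141 in Il1rn, and 7.81% of windows hold it. The C/EBP letters stood at -133 in Il1r1 and -49 in Il18bp (10.8% of windows). In the windows not shown, TATAAA letters began at 15 in the most downstream window of Il1rn. They also began at -203 and -29 in separate windows of Il33, and at -175 in that of Il18. The NF-kappaB letters (GGG and CC separated by any 5 bases), left in lower case, occurred in the Il1rn window at -54 and -4, and in each window of Il1rn and Il1r1 not shown, but are found in 50.8% of all windows. The interferon motifs ISRE (GAAA repeated after a gap of any 2 bases, in 3.44% of windows) and GAS (TTCNNNGAA, 8.30%) had no match in these 5 windows. No motif overlapped another here, and a match of letters is a description, not a binding site.

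Signals are the authors' RMA values on a linear scale, and a difference is the log2 signal of the knockout-labelled array minus that of the wild-type array. A gene counted as above the floor where its brighter array reached 159, the median over all named genes, which 12158 genes did. Hdac11 itself gave 134.5 in wild type and 147.2 in the knockout-labelled sample, both below the floor. It was thus not lower under the knockout label, on which all directions given here depend. The sources used here do not say whether its probes lie in the deleted stretch. The Y-linked genes Ddx3y, Kdm5d, Uty and Eif2s3y gave from 176.4 to 313.8 in wild type and from 25.9 to 98.0, below the floor, in the knockout-labelled sample, so that the sizes of their differences are uncertain. A difference in the sex of the mice cannot be told apart from one of genotype in any value below. The median over intron control probesets was -0.36. Macrophage identity genes fit the labelled cell type, with all 10 above the floor, 1709 as their dimmest signal and a median of 0.01 (turning to -0.0015 with the trend over genomic span removed).

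Of the 10 members 6 were above the floor, namely Il1a, Il18, Il1rn, Il18bp, Il1r1 and Il1rap, and none of these reached 1.5-fold in either direction. Among all genes above the floor 1.55% reached 1.5-fold, 0.543% higher and 1.01% lower, so a count of 0 among 6 lies close to that background. Both inhibitors and the signalling receptor of IL-1 were dimmer on the knockout-labelled array, and both ligands above the floor were brighter. The median over the 6 was -0.19, against -0.01 over all genes above the floor, of which 53.2% were lower. None of the 12 member probesets is on the authors' deposited table of changed probesets. The smallest fold on that table, computed from the same signals, is 1.495, above the 1.42 of Il1rn, the member furthest from 0. Their absence thus follows from the folds and is no further evidence.

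**Figure D1:**
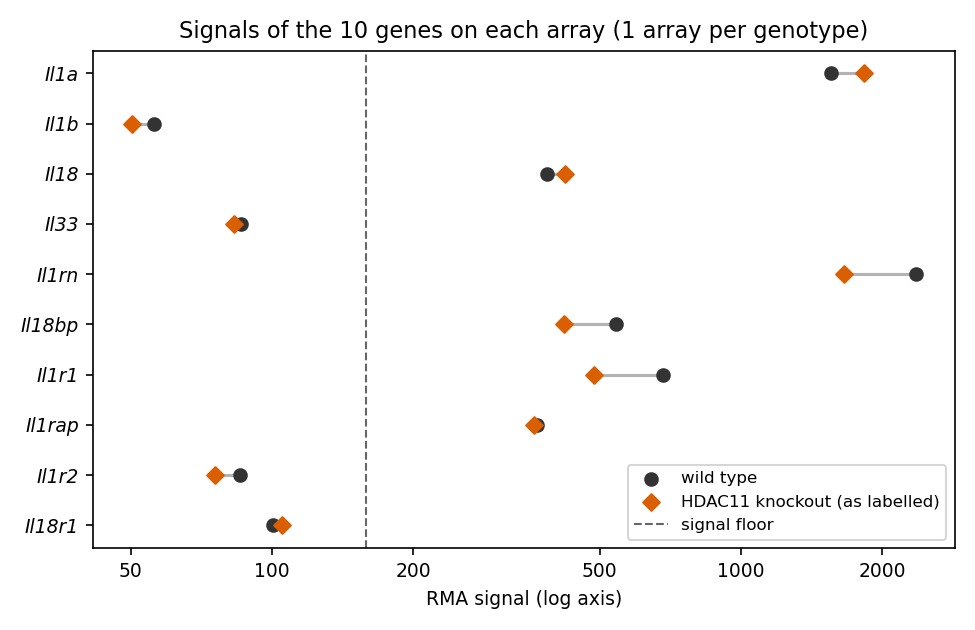
RMA signal (log axis) of the 10 genes on the wild-type array (circles) and on the array labelled HDAC11 knockout (diamonds), with the floor of 159 as a dashed line. Il1rn, Il18bp and Il1r1 are dimmer and Il1a and Il18 brighter on the knockout-labelled array, while Il1b, Il33, Il1r2 and Il18r1 lie left of the floor on both.

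Of the agonist ligands, Il1a (probeset 17391554, chromosome 2, 129299610 to 129309972, minus strand, 24 probes) gave 1558 in wild type and 1833 in the knockout-labelled sample. That is a difference of 0.24, or 1.18-fold higher. Of all genes above the floor 8.87% were higher by at least as much. Among the 500 genes nearest in mean signal, 95% of the differences lay between -0.29 and 0.32, so Il1a was inside the range its neighbours in brightness cover. Il1b (probeset 17391565, chromosome 2, 129364570 to 129371139, minus strand, 19 probes) gave 56.0 and 50.4. Both signals lay below the floor, and no fold is given for them. The neighbouring agonist genes, with the TATA-containing promoters shown above, were therefore measured on opposite sides of the floor in both genotypes.

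Il18 (probeset 17517105, chromosome 9, 50565368 to 50581837, 26 probes) gave 386.6 in wild type and 421.9 in the knockout-labelled sample. The difference of 0.13 (1.09-fold) lay well inside the range of genes of like signal, -0.44 to 0.39, and 20.6% of genes above the floor were higher by at least as much. Il33 (probeset 17358598, chromosome 19, 29925114 to 29960715, 30 probes) gave 85.9 and 83.2, below the floor on both arrays. The stromal alarmin was thus dim on both arrays.

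The antagonist Il1rn had the largest difference of the 10 genes. Its probeset (17367686, chromosome 2, 24336853 to 24351494, plus strand, 23 probes) gave 2358 in wild type and 1661 in the knockout-labelled sample. The difference was -0.51, or 1.42-fold lower. It lay outside the range of -0.31 to 0.25 that held 95% of the genes of like signal, and 1.53% of genes above the floor were lower by at least as much. The probeset spans all 3 start sites that RefSeq gives the gene, and it cannot tell the secreted form of the antagonist from intracellular forms.

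Il18bp, the inhibitor that binds IL-18 itself and is known as an interferon-gamma-inducible gene, was also dimmer. Its probeset (17493995, chromosome 7, 102015077 to 102018155, minus strand, 19 probes) gave 541.0 in wild type and 419.5 in the knockout-labelled sample. Its difference was -0.37, or 1.29-fold lower. This value was inside the range of genes of like signal, -0.41 to 0.39, close to its lower end, and 3.25% of genes above the floor were lower by at least as much. Ifng, the gene of interferon-gamma, was below the floor on both arrays at 117.4 and 127.4.

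Ligand and inhibitor therefore differed in opposite directions in both pairs above the floor, Il1a with Il1rn and Il18 with Il18bp. Of these 4 genes Il1rn alone lay outside its like-signal range on the signals as deposited. Il1b, the other agonist that Il1rn opposes, was below the floor and had the sign of Il1rn (-0.15). The difference of Il1a exceeded that of Il1rn by 0.74 on the log2 scale, so the ratio of Il1a to Il1rn signal was 1.67 times as high on the knockout-labelled array. For Il18 against Il18bp the gap was 0.49, or 1.41 times. These gaps compare changes, not levels, since probesets of different genes are not on a shared scale of abundance, and they were picked out after the values were seen.

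**Figure D2:**
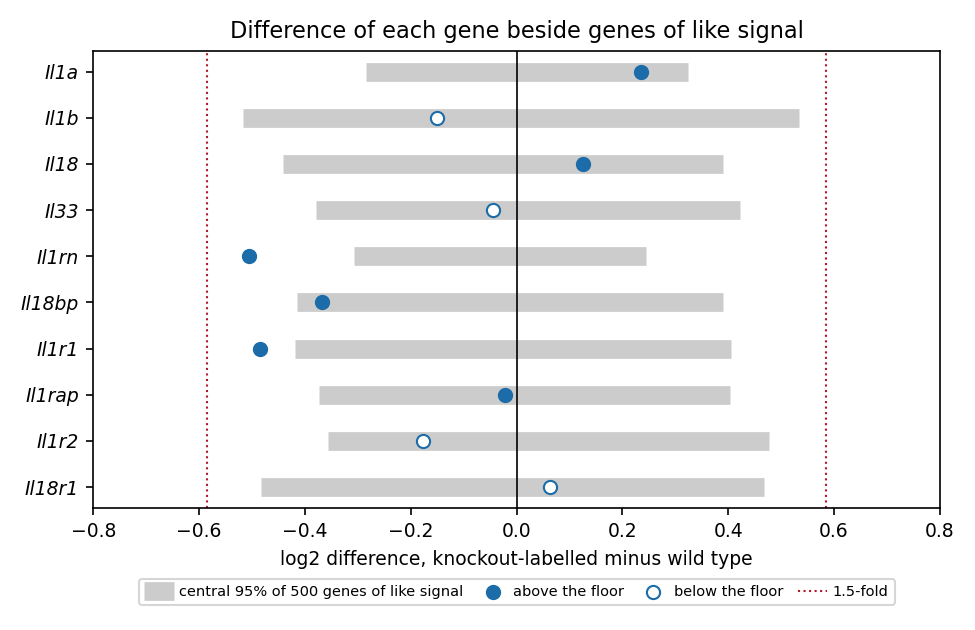
Difference in log2 signal (knockout-labelled minus wild type) of each of the 10 genes, filled where above the floor and open where below, over a grey bar that holds 95% of the differences of the 500 genes nearest in mean signal. Il1rn (-0.51) and Il1r1 (-0.49) lie outside their bars, and no gene reaches the dotted lines at 1.5-fold.

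Among the receptors, Il1r1 (probeset 17212185, chromosome 1, 40225080 to 40316198, plus strand, 21 probes) gave 681.3 in wild type and 486.5 in the knockout-labelled sample. The difference of -0.49 (1.40-fold lower) lay outside the range of genes of like signal, -0.42 to 0.41. Of genes above the floor 1.63% were lower by at least as much. Il1r1 is known to be abundant in fibroblasts, and markers of mesothelial cells and fibroblasts were lower on the same array. Of these 15 markers 9 were above the floor, 8 of them lower, with a median of -0.18, and the summed signal of all 15 was 7891 in wild type and 7366 in the knockout-labelled sample. No marker was listed at 0, the dimmest signal being 58.8. The fibroblast receptor gene Pdgfra, the furthest from 0 of these 9, gave 708.9 and 493.9 (-0.52). Col1a2 (-0.34, or -0.15 with its probesets averaged) and Dcn (-0.24) differed less, and Pdpn was higher (0.08). The part of such cells in the difference of Il1r1 was not tested, and fewer cells of a type cannot be told apart from less RNA per cell.

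The accessory chain Il1rap differed little. Its brightest probeset (17324522, chromosome 16, 26581704 to 26725264, plus strand, 30 probes) gave 368.0 and 362.4, a difference of -0.02 that turned to 0.01 after quantile normalization and to 0.06 with the trend over genomic span removed. Of the other probesets with this symbol, 17324542 on the same strand near the 3' end gave 37.1 and 30.3, and 17329494, annotated to the minus strand, gave 49.6 and 51.3. Both lay below the floor, and they were not used for the gene. With all its probesets averaged the difference of Il1rap was -0.09, with the gene then below the floor. Il1r1 and the brightest probeset of the chain it recruits gave differences 0.46 apart.

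The decoy receptor Il1r2 (probeset 17212174, chromosome 1, 40084768 to 40125225, 23 probes) gave 85.5 in wild type and 75.6 in the knockout-labelled sample. Il18r1, the ligand-binding chain of the IL-18 receptor (probeset 17212229, chromosome 1, 40465552 to 40500854, 31 probes), gave 100.5 and 105.0. Both genes were below the floor on both arrays. The 4 members below the floor had differences from -0.18 (Il1r2) to 0.06 (Il18r1, which turned to -0.02 under loess scaling), all inside the range of genes of like signal. Such dim signals do not show whether a transcript was absent.

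The other genes of the family were mostly dim. The 5 ligand genes Il1f5, Il1f6, Il1f8, Il1f9 and Il1f10, which encode IL-36 ligands, their antagonist and IL-38, lay below the floor with signals from 24.0 to 103.7. Of 6 further receptor genes the IL-36 receptor Il1rl2 alone was above it, with 398.3 in wild type and 463.0 in the knockout-labelled sample (0.22), inside its like-signal range. Below the floor, the IL-33 receptor Il1rl1 gave 109.7 and 146.8, the inhibitory receptor Sigirr 81.5 and 110.8, and the IL-18 accessory chain Il18rap 80.4 and 84.4. Il1rl1 is known to be strong on mast cells. The mast cell gene Cpa3 gave 168.7 and 366.0 (1.12). It was the only 1 of 10 mast cell and basophil markers above the floor. Below the floor, Tpsb2 gave 64.5 and 109.7 (0.77) and Cma1 61.5 and 85.9 (0.48). Kit, Fcer1a and Mcpt8 were higher by at most 0.12, and Gata2 (-0.18), Ms4a2 (-0.11), Hdc (-0.07) and Mcpt4 (-0.07) were lower. The median over all 10 was 0.07, and their summed signal of 697.2 against 954.7 includes Cpa3. The part of such cells in the Il1rl1 signal was not tested.

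Genes beside a member on its chromosome did not all differ in its direction. Il1r1 lies on chromosome 1 beside Il1r2, Il1rl2, Il1rl1, Il18r1 and Il18rap, and of the 4 genes of a list of 8 from that cluster above the floor, Il1r1 was lower and 3 were higher, including the sodium-proton exchanger Slc9a4 at 612.7 and 761.4 (0.31). On chromosome 2, Il1rn is flanked by the Il1f genes and Psd4, which gave 1046 and 881.1 (-0.25). The phosphate transporter Slc20a1, near Il1a and Il1b, gave 1758 and 1481 (-0.25) where Il1a was higher.

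Downstream of the receptor, the adaptor and kinase genes differed little. All 20 genes of receptor-proximal signalling were above the floor, 5 higher and 15 lower, with a median of -0.09 and none at 1.5-fold. The adaptor Myd88 gave 1852 and 1810 (-0.03), the kinase Irak4 2174 and 2188 (0.01) and the ubiquitin ligase Traf6 898.7 and 900.6 (0.00). The restraining factors Irak3 (-0.02) and Tollip (-0.11) also stayed close to 0, although Irak3 turned to 0.0067 under loess scaling, 0.0079 under quantile normalization and 0.03 with the span trend removed. The members of this list furthest from 0 were Ecsit, an adaptor of Traf6 signalling, at 350.7 and 280.4 (-0.32) and the ubiquitin ligase Peli3 at 335.9 and 405.3 (0.27), both inside their like-signal ranges.

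Genes for processing and release of the ligands had a median of -0.03, with 20 of 24 above the floor, 7 higher and 13 lower. Caspase-1 (Casp1) gave 2351 and 2418 (0.04), the adaptor Pycard 1139 and 1123 (-0.02, turning to 0.0067 under loess and 0.0044 under quantile scaling) and the sensor Nlrp3 357.3 and 327.3 (-0.13). The exception at 1.5-fold was Nlrp1b, the inflammasome sensor known for detecting anthrax lethal factor, at 526.2 in wild type and 333.6 in the knockout-labelled sample. Its difference was -0.66, or 1.58-fold lower, outside the like-signal range. Nlrp1a, a close paralogue, gave 169.9 and 152.8 (-0.15), and both probesets are unique by the deposited annotation.

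Genes that IL-1 and IL-18 are known to induce were split evenly, with 22 of 32 above the floor, 11 higher and 11 lower. Their median of -0.01 had no settled sign, since it ran from -0.13 with the floor at the 75th percentile and -0.04 under loess scaling to 0.06 without a floor. The collagenase Mmp13 gave 926.5 and 613.9 (-0.59, 1.51-fold lower), which came to just under 1.5-fold under median (-0.58), loess (-0.57) and quantile (-0.56) scaling and with 16 added to each signal (-0.58). The prostaglandin synthase Ptgs2 gave 175.4 and 175.5 (0.00). The cytokine Il6, at 16.9 and 21.1, and the chemokine Cxcl1, at 117.3 and 136.3, lay below the floor. Of 20 inducers and transcription factors of Il1 genes, all above the floor, 16 were lower and 4 higher, and the median was -0.05. Irf4, a transcription factor of alternatively activated macrophages, gave 397.5 and 263.2 (-0.59, 1.51-fold lower, and just under 1.5-fold at -0.58 under median scaling, -0.56 under quantile normalization and -0.57 with 16 added to each signal). PU.1, listed under its older symbol Sfpi1 and a known activator of Il1b, gave 2555 and 2464 (-0.05). The AP-1 subunit genes Fos and Jun gave 505.6 and 351.1 (-0.53) and 3856 and 3413 (-0.18). The C/EBP genes Cebpb (0.10) and Cebpd (-0.04) differed less. Whether any of these factors bears on the members was not tested.

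**Figure D3:**
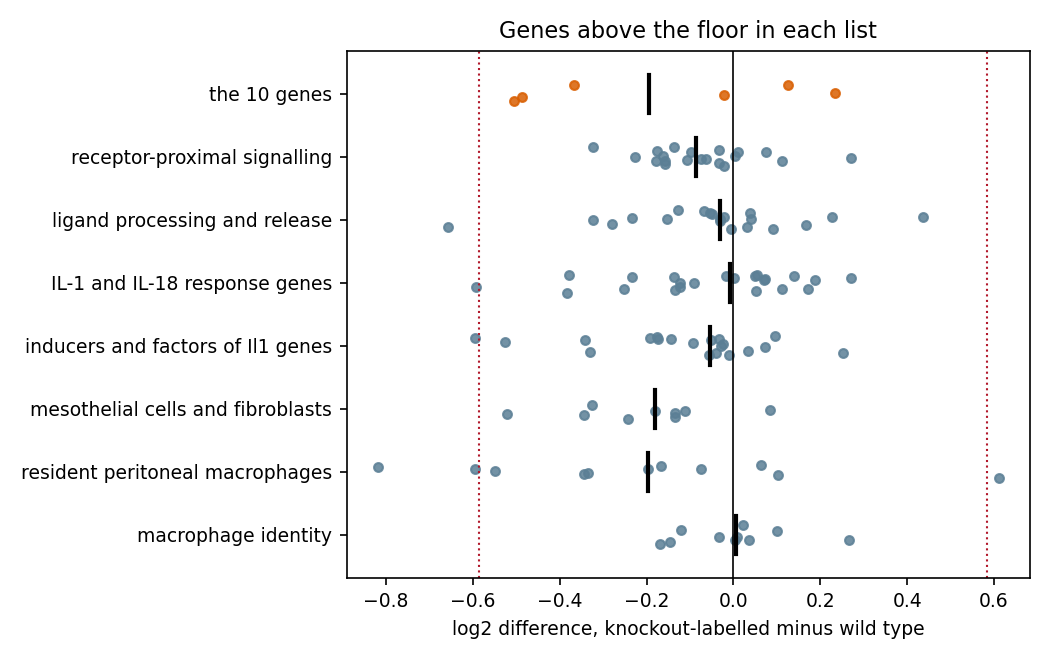
Difference in log2 signal (knockout-labelled minus wild type) of each gene above the floor, by list, with the list's median as a black bar and 1.5-fold as dotted lines (points are spread vertically for legibility). The median of the 6 of 10 genes above the floor was -0.19, that of receptor-proximal signalling -0.09, and those of mesothelial and fibroblast markers and of resident peritoneal macrophage markers -0.18 and -0.20.

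Markers of resident peritoneal macrophages, another cell state of the cavity, were mostly lower on the knockout-labelled array, as were Il1rn, Il18bp and Il1r1. The list was chosen with earlier results of these data known. Of 13 markers 11 were above the floor, 3 higher and 8 lower, with a median of -0.20 and summed signals of 7976 and 6383. Of all genes above the floor 53.2% were lower. The matrix protein gene Thbs1 gave 2196 and 1502 (-0.55). The adhesion molecule Selp gave 429.5 and 243.4 (-0.82) and the chemokine Cxcl13 1539 and 1019 (-0.60), while coagulation factor F5 went the other way at 340.0 and 519.2 (0.61). None of the markers was listed at 0, and the dimmest signal was 67.5. Neutrophils are a known source of Il1b, Il1r2 and Il1rn, and the summed signal of 15 neutrophil markers was 7452 in wild type and 7537 in the knockout-labelled sample. Most of that sum came from Csf3r (2606 and 2648), Mmp8 (2034 and 1681) and Mmp9 (1685 and 1856). Of these 15 markers 5 were above the floor, 3 higher and 2 lower, with a median of 0.02 (0.14 over all 15). S100a8, a calcium-binding protein of neutrophils, gave 203.1 and 375.6 (0.89), outside its like-signal range, while S100a9 was below the floor at 62.8 and 58.2. Monocyte markers had 4 of 8 above the floor, 3 higher and 1 lower, and a median of 0.28 (0.07 over all 8). Chi3l3 gave 128.6, below the floor, and 227.8 (0.82), while Ccr2 was lower at 223.2 and 194.1 (-0.20). The B cell gene Ighm gave 1415 and 761.4 (-0.89, or -0.44 with its probesets averaged), while 6 B cell markers above the floor had a median of -0.01. The part of any of these cell populations in the differences of Il1rn, Il18bp and Il1r1 was not tested.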

How the data were processed

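RMA intensity on a linear scale fills the deposited workbook. The submitters' processing notes name Affymetrix Expression Console 1.2.1 and RMA, and per the file headers the signals are gene-level RMA values. The log2 values deposited in the series matrix are the same signals to within 5e-05. A signed fold score, brighter over dimmer signal, was also deposited by the authors. The sources used here name no genome build. Coordinates are printed as deposited, and all 12 member probesets overlapped their RefSeq gene in GRCm38.p6.

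The probeset of highest mean signal stood for a gene. Differences, a floor at the median of the brighter array, counts at 1.5-fold and list medians were computed with Python 3.11.15, pandas 2.3.3 and statsmodels 0.14.6. Each difference was set beside those of the 500 genes nearest in mean signal. Steps were tested on simulated data with shifts larger than any member difference here, which checks the computation alone. With 1 array per group no test was possible, and genes could not be matched by the likeness of their patterns across samples. Members and lists were chosen with earlier results of these data known. Beside the members, the rule named up to 4 genes at 1.5-fold per list, or the 2 furthest from 0 where none reached it; others were named for their role or after their values were seen. Alternatives varied the source of values, the scaling (median, loess or quantile), how probesets were summarised, the floor and an offset of 16; removal of the trend over genomic span was chosen after seeing the data.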

Additional observations from a re-analysis of the deposited data

How the results depend on the processing

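No paired analysis was possible because each genotype had 1 array. Under the 7 alternatives that can change a gene's difference, all 70 member differences moved by less than 1 SD of genes of like signal. Il1rn lay between -0.51 and -0.48, Il1r1 between -0.49 and -0.42, Il18bp between -0.43 and -0.34, Il1a between 0.22 and 0.27 and Il18 between 0.12 and 0.15. Over genes above the floor, differences fell with genomic span (Spearman rho -0.24). With that trend removed Il1r1 was -0.424 and Il18bp -0.435, against lower ends of -0.419 and -0.415 for genes of like signal. Those ranges were not recomputed without the trend, so which of Il1r1 and Il18bp lies outside is not settled. No member reached 1.5-fold under any of the 10 alternatives, and only Il1rap and Il18r1 changed sign, under the scalings given above. The median over members above the floor was -0.37 with the mean of all probesets, which left Il1rap below the floor, -0.045 with the floor at the 25th percentile (9 members) and -0.49 with it at the 75th (3 members). That median thus follows from which members pass. Of all genes, 250 were higher and 258 lower by 1.5-fold without a floor, 121 were higher with the floor at the 25th percentile, and 23 were higher and 35 lower with it at the 75th. Background correction and probe summary were not varied.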
